A study of Homo sapiens with 12 samples.

Results

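The 10 genes described here encode the regulators that are usually held to set how much respiratory chain a human cell makes. They were taken as a list of gene symbols, PPARGC1A, PPARGC1B, PPRC1, NRF1, GABPA, GABPB1, ESRRA, YY1, TFAM and POLRMT, out of the 58735 genes of GENCODE 29 in the deposited expression tables. No threshold on a measured value defined the list, but it was chosen with earlier results of these data known. All 10 were listed in both tables, and 9 of them had enough reads to be tested in each. RNA-seq had been made from 12 libraries of poly-A selected RNA, 3 in each of 4 groups. SK-BR-3 is an established line of human breast cancer cells with amplified ERBB2. SK/EPI is an epirubicin-resistant line derived from SK-BR-3 by long exposure to rising concentrations of epirubicin, an anthracycline that poisons topoisomerase II. SK/EPI-siBCRP and SK/EPI-siNC are SK/EPI cells transfected for 48 h, with the lipid reagent Lipofectamine RNAiMax, with an siRNA against BCRP or with the control siRNA siNC. BCRP is the efflux transporter encoded by ABCG2. The resistant cells are thus 1 derived line, and all cells of the siRNA comparison are resistant. The resistant line was compared with its parent, and BCRP silencing with the control siRNA. The study asked how BCRP bears on oxidative phosphorylation (OXPHOS) in resistant cells. The question taken up here is whether any of these regulators falls in SK/EPI cells and rises after BCRP silencing, as most nuclear genes of OXPHOS do.

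The respiratory chain is built from subunits encoded in the nucleus and a small number encoded in mitochondrial DNA (mtDNA), and its supply is coordinated largely by transcription. The coactivators PGC-1α (PPARGC1A), PGC-1β (PPARGC1B) and PRC (PPRC1) do not bind DNA themselves. They dock on DNA-binding factors, chiefly nuclear respiratory factor 1 (NRF1), the GABP complex made of a DNA-binding α subunit (GABPA) and an activating β subunit (GABPB1), the orphan nuclear receptor ERRα (ESRRA) and YY1. These factors act on the genes of OXPHOS subunits and on TFAM and other genes of mtDNA transcription. TFAM packages mtDNA and starts its transcription, and POLRMT is the mitochondrial RNA polymerase. PGC-1α is best known from brown fat, muscle and heart, while PGC-1β and ERRα are prominent in many cancer cells.

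The promoters of ESRRA, TFAM and POLRMT are shown because these were the 3 regulators that passed the test in both comparisons. Each line is the 150 bases just before the RefSeq start site, 5′ to 3′ on the gene's strand (GRCh38.p14), at chr11:64305374-64305523 (+) for ESRRA, chr10:58385260-58385409 (+) for TFAM and chr19:633538-633687 (-) for POLRMT. Capitals mark matches to the core of the NRF1 motif, GCGCANGCG, or to the GABP/ETS core, CCGGAAG, on either strand.
ESRRA: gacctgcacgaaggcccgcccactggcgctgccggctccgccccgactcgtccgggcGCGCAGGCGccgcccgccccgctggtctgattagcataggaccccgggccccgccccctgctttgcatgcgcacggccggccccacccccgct
TFAM: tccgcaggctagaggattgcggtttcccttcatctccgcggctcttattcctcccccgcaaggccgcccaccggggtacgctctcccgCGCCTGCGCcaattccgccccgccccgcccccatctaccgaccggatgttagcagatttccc
POLRMT: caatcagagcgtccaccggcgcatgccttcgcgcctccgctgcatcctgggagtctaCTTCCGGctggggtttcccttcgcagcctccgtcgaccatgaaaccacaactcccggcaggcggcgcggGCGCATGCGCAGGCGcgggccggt
The ESRRA promoter held 1 NRF1 core, on its own strand, with its first base at -93 counted from the start site. The TFAM promoter held 1, on the opposite strand, with its first base at -62. In the POLRMT promoter 3 NRF1 matches overlapped, with first bases at -24, -23 and -18, and a GABP/ETS core lay at -93. These are matches of letters in a window, and no binding was measured. Sequences of promoters (250 bases before to 50 after the start) were found in RefSeq for 9 of the 10 regulators, and NRF1 itself had none in the table used. Of these 9, 3 held the NRF1 core, 2 the GABP/ETS core (GABPA and POLRMT), 1 the YY1 core GCCATNTT (PPRC1) and 0 the ERR core TNAAGGTCA. Among all 27305 promoters in the table, 8.05% held the NRF1 core, 10.7% the GABP/ETS core, 6.82% the YY1 core and 0.963% the ERR core.

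Levels are in FPKM, the fragments on a gene divided by its exon length and by the size of the library, so they can be compared between genes. Reads on genes, read back from the FPKM values, ranged from 15830381 to 20545811 per library. Each of the 9 tested regulators had between 311 and 4050 reads in a library. The total by which the authors had scaled also differed between the groups, because reads on genes were 99.8% to 101% of it in SK-BR-3 cells and 92.8% to 95.4% of it in SK/EPI cells. After siBCRP or siNC they were 89.5% to 90.7% of it. ABCG2 itself stood at 34.1 FPKM ± 1.61 in SK/EPI cells (SD, n = 3, as in all groups) and at 0.0497 ± 0.0266 in the parental line. It stood at 33.0 ± 0.673 after siNC and at 3.08 ± 0.345 after siBCRP, a fall of 90.7% that fits the labels. Of 7 epithelial and ERBB2 amplicon markers, 6 were expressed and CDH1 was at or near 0 in every group. Of the 6, 2 rose (KRT8 and KRT18) and 3 fell (ERBB2, GRB7 and KRT19) in SK/EPI cells, ERBB2 from 659 to 133 FPKM, and all 6 fell after siBCRP. Their summed level ran from 3540 to 3730 FPKM in SK-BR-3 libraries and from 2210 to 2320 FPKM in SK/EPI libraries, and from 2610 to 2660 FPKM after siNC and 2180 to 2220 FPKM after siBCRP. The fibroblast and leukocyte markers summed to at most 1.96 FPKM in any library. Of the endothelial markers PECAM1 and VWF were at or under 0.196 FPKM in every group mean, and CDH5 alone was higher, at 6.77, 27.5, 13.8 and 22.2 FPKM in SK-BR-3, SK/EPI, SK/EPI-siNC and SK/EPI-siBCRP. The part of any other cell type in the results was not tested.

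In SK/EPI cells 4 of the 9 tested regulators fell (TFAM, NRF1, ESRRA and GABPB1) and 2 rose (POLRMT and YY1), while PPARGC1B, PPRC1 and GABPA did not pass the test. After siBCRP, 6 rose (PPARGC1B, ESRRA, POLRMT, TFAM, PPRC1 and GABPA) and 0 fell, and NRF1, GABPB1 and YY1 did not pass it. ESRRA and TFAM alone among the 9 fell in SK/EPI cells and rose after siBCRP. These counts stand beside a wide background. In the fit over all genes (limma on log2(FPKM + 1), Benjamini-Hochberg adjusted p under 0.05), 37.9% of 15823 tested genes rose and 37% fell in SK/EPI cells, and 19.4% of 16298 rose and 18.7% fell after siBCRP. The pattern of a fall followed by a rise was met by 8.51% of the 15152 genes tested in both. How often groups did not overlap was looked up for listed genes only, so it has no such background. At an unadjusted p under 0.05 the count of regulators that fell after siBCRP was also 0, and it was 0 with voom on the recovered reads. In bulk RNA a change in the level of an mRNA in each cell and a change in the share of cells that express it cannot be told apart. Nothing in the labels says that the 3 libraries of a group came from separate cultures, so these p-values measure the spread between libraries, which may be technical.

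**Figure D1:**
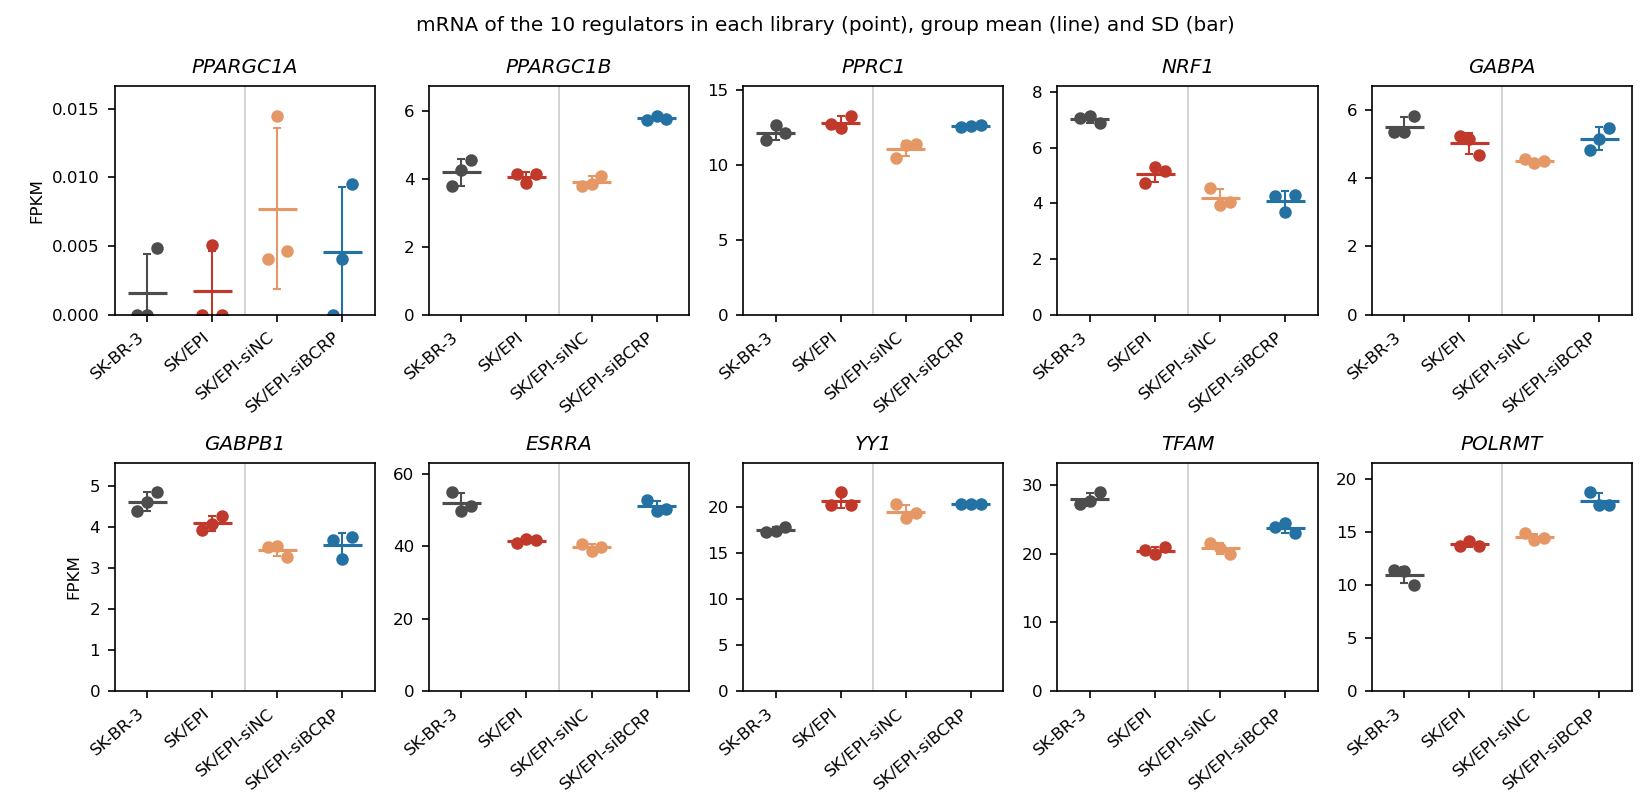
FPKM of the 10 regulators (y axes, each from 0, one panel per gene) in the 12 libraries (points), with group means (lines) and SDs (bars, n = 3). The grey line separates the 2 tables, which may have been scaled separately. ESRRA, TFAM and GABPA are lower in every SK/EPI library than in every SK-BR-3 library and higher in every siBCRP library than in every siNC library. GABPA passed the test only after siBCRP. The share of all genes whose groups did not overlap was not counted. PPARGC1A stays at or under 0.0145 FPKM.

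The coactivators were first compared. PPARGC1A, which encodes PGC-1α, was listed at or near 0 throughout. In SK-BR-3 cells it had 0, 0 and 1 reads in the 3 libraries, and in SK/EPI cells 0, 1 and 0. After siNC it had 1, 3 and 1 reads, and after siBCRP 0, 1 and 2. No library thus exceeded 3 reads, which corresponds to 0.0121 to 0.0174 FPKM depending on the library, and no change in PPARGC1A was detectable at this depth. This limit covers counting error only. PGC-1α mRNA was therefore at or below the limit of detection in the parental line and in the resistant line, with or without BCRP silencing.

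PPARGC1B, which encodes PGC-1β, stood at 3.77, 4.25 and 4.55 FPKM in the SK-BR-3 libraries and at 4.12, 3.87 and 4.12 FPKM in the SK/EPI libraries. The groups overlapped, and the log2 fold change was -0.04 (95% interval -0.20 to 0.12, limma adjusted p = 0.605). With siNC the libraries held 3.79, 3.83 and 4.09 FPKM and with siBCRP 5.74, 5.85 and 5.75 FPKM. Every siBCRP library was above every siNC library, and PPARGC1B rose by 48.0%, with a log2 fold change of 0.47 ± 0.04 (SE, adjusted p = 0.000183). PPARGC1B had the largest rise of the 9 regulators after siBCRP.

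PPRC1 encodes PRC, the coactivator that responds to serum and growth signals. It stood at 11.7, 12.7 and 12.1 FPKM in SK-BR-3 cells and at 12.7, 12.4 and 13.3 FPKM in SK/EPI cells, with overlapping groups and a log2 fold change of 0.07 (95% interval -0.03 to 0.17, adjusted p = 0.169). With FPKM rescaled to the reads on genes, without the mitochondrial chromosome, or with voom on the recovered reads, PPRC1 passed the test as higher in SK/EPI cells (log2 fold changes of 0.15, 0.17 and 0.16, adjusted p between 0.00369 and 0.0108). In the siRNA libraries PPRC1 stood at 10.5, 11.3 and 11.4 FPKM after siNC and at 12.6, 12.6 and 12.6 FPKM after siBCRP. The groups did not overlap, and it rose by 13.6% (log2 fold change 0.17 ± 0.04, adjusted p = 0.00923). Of the coactivators, PPARGC1A had too few reads to be tested. PPARGC1B and PPRC1 were not called lower in SK/EPI cells, and both were higher after BCRP silencing.

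Among the DNA-binding factors, NRF1, which activates many genes of OXPHOS subunits and of mtDNA upkeep, fell by 28.1% in SK/EPI cells. It stood at 7.07, 7.15 and 6.90 FPKM in the SK-BR-3 libraries and at 4.72, 5.30 and 5.16 FPKM in the SK/EPI libraries, with no overlap (log2 fold change -0.41 ± 0.05, adjusted p = 0.000146). After siNC NRF1 stood at 4.56, 3.96 and 4.06 FPKM and after siBCRP at 4.27, 3.70 and 4.30 FPKM. These groups overlapped, and the log2 fold change was -0.03 (95% interval -0.19 to 0.13, adjusted p = 0.770). The interval leaves out a rise as large as the fall seen in SK/EPI cells. NRF1 therefore followed the OXPHOS genes downwards in the resistant line and did not pass the test after siBCRP.

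ESRRA encodes ERRα, the receptor through which PGC-1α and PGC-1β act on many genes of OXPHOS and the citric acid cycle. It had the highest level of the 10 regulators in every group. In SK-BR-3 cells it stood at 55.0, 49.8 and 51.1 FPKM and in SK/EPI cells at 40.9, 42.0 and 41.8 FPKM. Every SK/EPI library was below every SK-BR-3 library, and ESRRA fell by 20.0% (log2 fold change -0.31 ± 0.04, adjusted p = 0.000189). In siNC libraries ESRRA was at 40.7, 38.8 and 39.9 FPKM, and in siBCRP libraries at 52.9, 49.9 and 50.5 FPKM. Again the groups did not overlap, and it rose by 28.5% (log2 fold change 0.35 ± 0.03, adjusted p = 0.000115). The level after siBCRP was 51.1 ± 1.57 FPKM and stands beside 52.0 ± 2.69 FPKM in the parental cells, but the libraries are in separate tables and were not tested against each other. ESRRA shares 284 exonic bases (9.37% of its exons) with TRMT112 on the opposite strand, and the library kit did not mark strand. TRMT112 passed the test in neither comparison (log2 fold changes 0.07 and 0.01, adjusted p = 0.409 and 0.923).

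GABPA and GABPB1, the α and β subunits of GABP, moved little. GABPA stood at 5.36, 5.34 and 5.83 FPKM in SK-BR-3 cells and at 5.24, 5.16 and 4.67 FPKM in SK/EPI cells. The groups did not overlap, but the log2 fold change of -0.11 did not pass the test (95% interval -0.25 to 0.02, adjusted p = 0.111). After siNC GABPA stood at 4.58, 4.46 and 4.50 FPKM and after siBCRP at 4.83, 5.17 and 5.49 FPKM, a rise of 14.3% without overlap (log2 fold change 0.16 ± 0.05, adjusted p = 0.0435). That call was near the threshold. It was held in 1 of the 6 fits that each left out a library, the one without SK/EPI-siBCRP replicate 1, and the adjusted p over these fits ran from 0.0232 to 0.123. GABPA also shares 413 exonic bases (7.61% of its exons) with ATP5PF, an ATP synthase gene on the opposite strand. ATP5PF fell by 51.1% in SK/EPI cells and rose by 58.1% after siBCRP, and its part in the values of GABPA was not tested.

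GABPB1 stood at 4.37, 4.61 and 4.84 FPKM in SK-BR-3 cells and at 3.91, 4.07 and 4.26 FPKM in SK/EPI cells. It fell by 11.4% without overlap (log2 fold change -0.14 ± 0.05, adjusted p = 0.0455). This call too was near the threshold and was held in 1 of the 6 fits with a library left out, the one without SK-BR-3 replicate 1 (adjusted p over the 6 from 0.0325 to 0.130). With FPKM rescaled to the reads on genes it was lost (log2 fold change -0.07, adjusted p = 0.240). After siNC GABPB1 stood at 3.51, 3.52 and 3.27 FPKM and after siBCRP at 3.67, 3.23 and 3.75 FPKM, with overlapping groups and a log2 fold change of 0.04 (95% interval -0.11 to 0.18, adjusted p = 0.684). It shares 424 exonic bases (7.47% of its exons) with the antisense gene GABPB1-AS1, which rose in SK/EPI cells (log2 fold change 0.30, adjusted p = 0.00160).

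YY1, a zinc-finger factor that recruits PGC-1α to mitochondrial genes, went against the OXPHOS genes in SK/EPI cells. It stood at 17.3, 17.5 and 17.9 FPKM in SK-BR-3 cells and at 20.2, 21.6 and 20.3 FPKM in SK/EPI cells. Every SK/EPI library was above every SK-BR-3 library, and YY1 rose by 17.9% (log2 fold change 0.23 ± 0.04, adjusted p = 0.000757). After siNC it stood at 20.4, 18.9 and 19.4 FPKM and after siBCRP at 20.3, 20.4 and 20.4 FPKM. The log2 fold change of 0.06 did not pass the test (95% interval -0.02 to 0.13, adjusted p = 0.190).

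**Figure D2:**
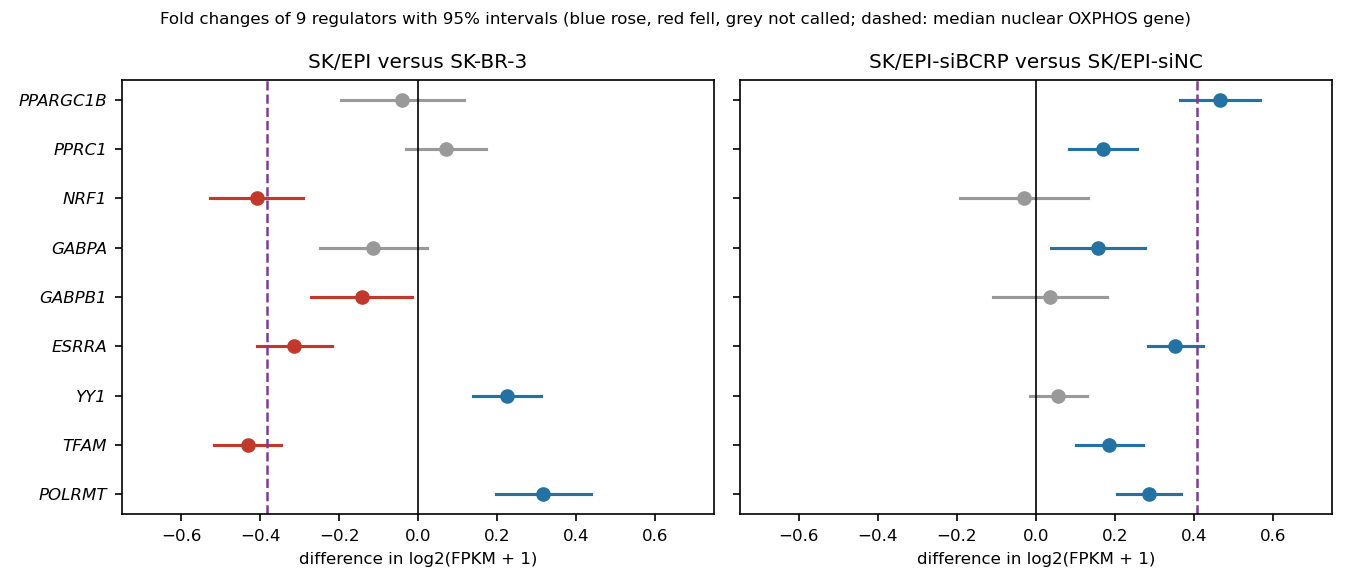
Differences in log2(FPKM + 1) (x axes) of the 9 tested regulators (y axis) in SK/EPI against SK-BR-3 cells (left) and after siBCRP against siNC (right), with 95% intervals (horizontal lines). Blue marks a rise and red a fall at an adjusted p under 0.05, grey no call, and the dashed line the median nuclear OXPHOS gene (-0.38 on the left, 0.41 on the right). ESRRA and TFAM are called on the side of that line in both panels, and POLRMT is called to the right of 0 in both.

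The 2 regulators that act inside the mitochondrion moved apart in SK/EPI cells. TFAM stood at 27.2, 27.6 and 28.9 FPKM in SK-BR-3 cells and at 20.5, 19.9 and 20.9 FPKM in SK/EPI cells. Every SK/EPI library was lower, and TFAM fell by 26.8% (log2 fold change -0.43 ± 0.04, adjusted p = 1.36e-05). This was the largest fall of the 9 in log2(FPKM + 1), but by percent of FPKM NRF1 fell more (28.1%). After siNC TFAM stood at 21.5, 20.9 and 19.9 FPKM and after siBCRP at 23.8, 24.5 and 23.0 FPKM. The groups did not overlap, and TFAM rose by 14.4% (log2 fold change 0.19 ± 0.04, adjusted p = 0.00591). The level after siBCRP, 23.8 ± 0.763 FPKM, lies below the 27.9 ± 0.907 FPKM of SK-BR-3 cells in the other table, a comparison that was not tested.

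POLRMT stood at 11.4, 11.3 and 10.02 FPKM in SK-BR-3 cells and at 13.6, 14.1 and 13.7 FPKM in SK/EPI cells. It rose by 26.7% without overlap (log2 fold change 0.32 ± 0.05, adjusted p = 0.000695). After siNC it stood at 14.8, 14.2 and 14.4 FPKM and after siBCRP at 18.7, 17.5 and 17.5 FPKM, a second rise of 23.5% without overlap (log2 fold change 0.29 ± 0.03, adjusted p = 0.000633). POLRMT mRNA was therefore higher in the resistant line than in its parent, and higher after siBCRP than after siNC. Pseudogene copies took few reads, with at most 39 in any library for the copy of POLRMT, 37 for that of GABPA and 4 for those of TFAM, and how reads with several positions were counted is not given in the sources used here.

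Ordered by level, ESRRA led in every group, followed in SK-BR-3 cells by TFAM, YY1, PPRC1, POLRMT, NRF1, GABPA, GABPB1, PPARGC1B and PPARGC1A. Of these neighbours only GABPB1 (4.61 ± 0.232 FPKM) and PPARGC1B (4.19 ± 0.392) had libraries that overlapped. In SK/EPI cells YY1 (20.7 ± 0.805 FPKM) and TFAM (20.4 ± 0.522) came level and their libraries overlapped. POLRMT (13.8 ± 0.267 FPKM) then stood above PPRC1 (12.8 ± 0.426), the reverse of their order in SK-BR-3 cells. NRF1 (5.06 ± 0.300 FPKM) overlapped GABPA (5.02 ± 0.309), which it had exceeded in the parental cells. After siBCRP PPARGC1B (5.78 ± 0.0611 FPKM) stood above GABPA (5.16 ± 0.330), NRF1 (4.09 ± 0.341) and GABPB1 (3.55 ± 0.285), of which the last pair overlapped. After siNC it stood below NRF1 with overlapping libraries. The SK/EPI and SK/EPI-siNC cells, which are in different tables, had similar levels of ESRRA (41.6 and 39.8 FPKM) and TFAM (20.4 and 20.8 FPKM), whereas NRF1 stood at 5.06 and 4.19 FPKM.

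The regulators were then set beside the genes they are known for. Of 77 tested nuclear genes of OXPHOS subunits, 53 fell and 5 rose in SK/EPI cells (68.8% and 6.49%, beside 37% and 37.9% of all tested genes). Their median log2 fold change was -0.38, against a median of 0.01 over all tested genes. NDUFB9 of complex I fell by 66.0% (log2 fold change -1.54 ± 0.04, adjusted p = 9.07e-09), and the ATP synthase genes ATP5PB and ATP5F1A fell by 60.8% and 59.5%. After siBCRP 62 of 78 rose and 3 fell (79.5% and 3.85%, beside 19.4% and 18.7% of all tested genes), with a median of 0.41. ATP5F1D rose by 78.8% (log2 fold change 0.81 ± 0.05, adjusted p = 3.02e-05). Both changes together, a fall and then a rise, were met by 45 of 77 (58.4%, beside 8.51% of all genes tested in both). Among the regulators they were met by ESRRA and TFAM. The fall of TFAM (-0.43) and of NRF1 (-0.41) exceeded that of the median OXPHOS gene, and that of ESRRA (-0.31) was smaller. The rise of PPARGC1B after siBCRP (0.47) exceeded the median OXPHOS gene, while those of ESRRA (0.35), POLRMT (0.29) and TFAM (0.19) were smaller. These are descriptions of size, and the differences between genes were not tested.

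**Figure D3:**
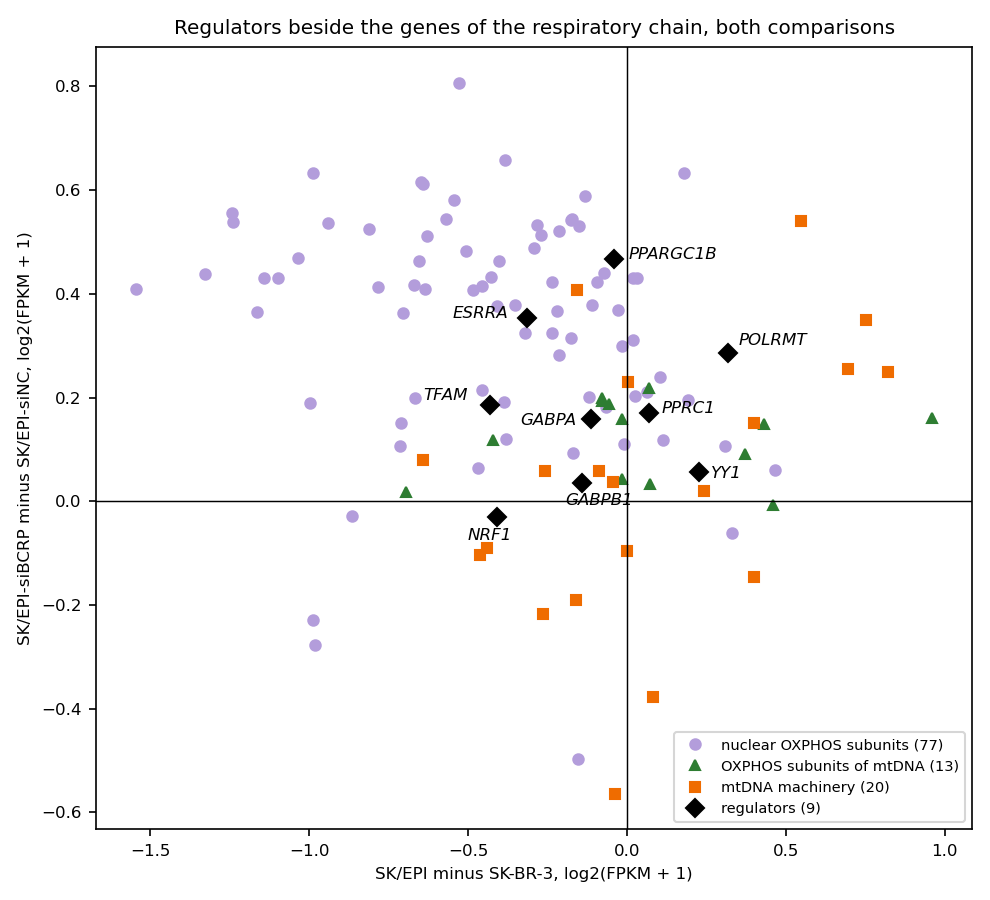
Differences in log2(FPKM + 1) in SK/EPI against SK-BR-3 cells (x axis) and after siBCRP against siNC (y axis) for 77 nuclear OXPHOS genes (circles), 13 OXPHOS genes of mtDNA (triangles), 20 genes of the mtDNA machinery (squares) and the 9 tested regulators (diamonds, named). ESRRA, TFAM, GABPA, GABPB1 and PPARGC1B lie in the upper left with most nuclear OXPHOS genes. Of these regulators only ESRRA and TFAM passed the test in both comparisons. POLRMT, PPRC1 and YY1 lie to the right of 0, and NRF1 lies at the left near 0 on the y axis.

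TFAM and POLRMT serve the 13 OXPHOS genes of mtDNA, which did not share the fall of the nuclear ones. In SK/EPI cells 4 of the 13 rose (30.8%, beside 37.9% of all tested genes) and 2 fell (15.4%, beside 37%), with a median log2 fold change of -0.02. MT-ND1 rose most (627 to 1219 FPKM, log2 fold change 0.96 ± 0.07, adjusted p = 8.52e-06), and MT-CO2 and MT-CO3 rose by 0.46 and 0.43, while MT-ATP8 and MT-CYB fell by 0.70 and 0.42 on the log2 scale. The reads on mtDNA were 4.18% to 4.23% of all reads on genes in SK-BR-3 libraries and 5.10% to 5.38% in SK/EPI libraries. After siBCRP 8 of the 13 rose and 0 fell (61.5% and 0%, beside 19.4% and 18.7% of all tested genes), with a median of 0.15. MT-ND3 (0.22), MT-ATP6 (0.20) and MT-ND4L (0.19) rose most. The count of 8 that rose was 0 with no filter on low genes. It was 8 without SK/EPI-siBCRP replicate 1 and between 3 and 5 without replicate 2 or 3 of SK/EPI-siBCRP or any one of the 3 SK/EPI-siNC libraries. The count of 4 in SK/EPI cells was 7 with voom on the recovered reads, 2 with no filter on low genes, and 2 without SK-BR-3 replicate 3, SK/EPI replicate 2 or SK/EPI replicate 3. Poly-A selection measures mitochondrial mRNAs through their short tails, and MT-ATP8 with MT-ATP6, like MT-ND4L with MT-ND4, share one transcript.

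The 20 other genes of mtDNA transcription, replication and RNA upkeep changed in both directions. In SK/EPI cells 6 rose and 6 fell (30% each, below the 37.9% and 37% of all tested genes, median -0.02), so the counts show nothing particular to this list. TOP1MT, the mitochondrial topoisomerase I, rose by 0.82 on the log2 scale, LONP1, the matrix protease that degrades TFAM among other proteins, by 0.75, and TWNK, the replicative helicase, by 0.70. TFB2M, the factor that opens mtDNA promoters together with TFAM and POLRMT, fell by 0.64, and MGME1 and MTERF4 fell by 0.46 and 0.44. After siBCRP 6 rose and 5 fell (30% and 25%, beside 19.4% and 18.7% of all tested genes, median 0.05), and the 5 became 3 without SK/EPI-siNC replicate 1. LRPPRC and its partner SLIRP, which stabilise mitochondrial mRNAs, rose by 0.54 and 0.41, and LONP1 rose by 0.35. RNASEH1, LIG3 and DNA2, enzymes of DNA replication and repair that also work outside mitochondria, fell by 0.56, 0.38 and 0.22. None of the 20 fell in SK/EPI cells and rose after siBCRP. Like POLRMT, 4 of them (TWNK, TOP1MT, LONP1 and LRPPRC) rose in both (20%, beside 8.07% of all genes tested in both). These 4 are named because they share the pattern of POLRMT.

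**Figure D4:**
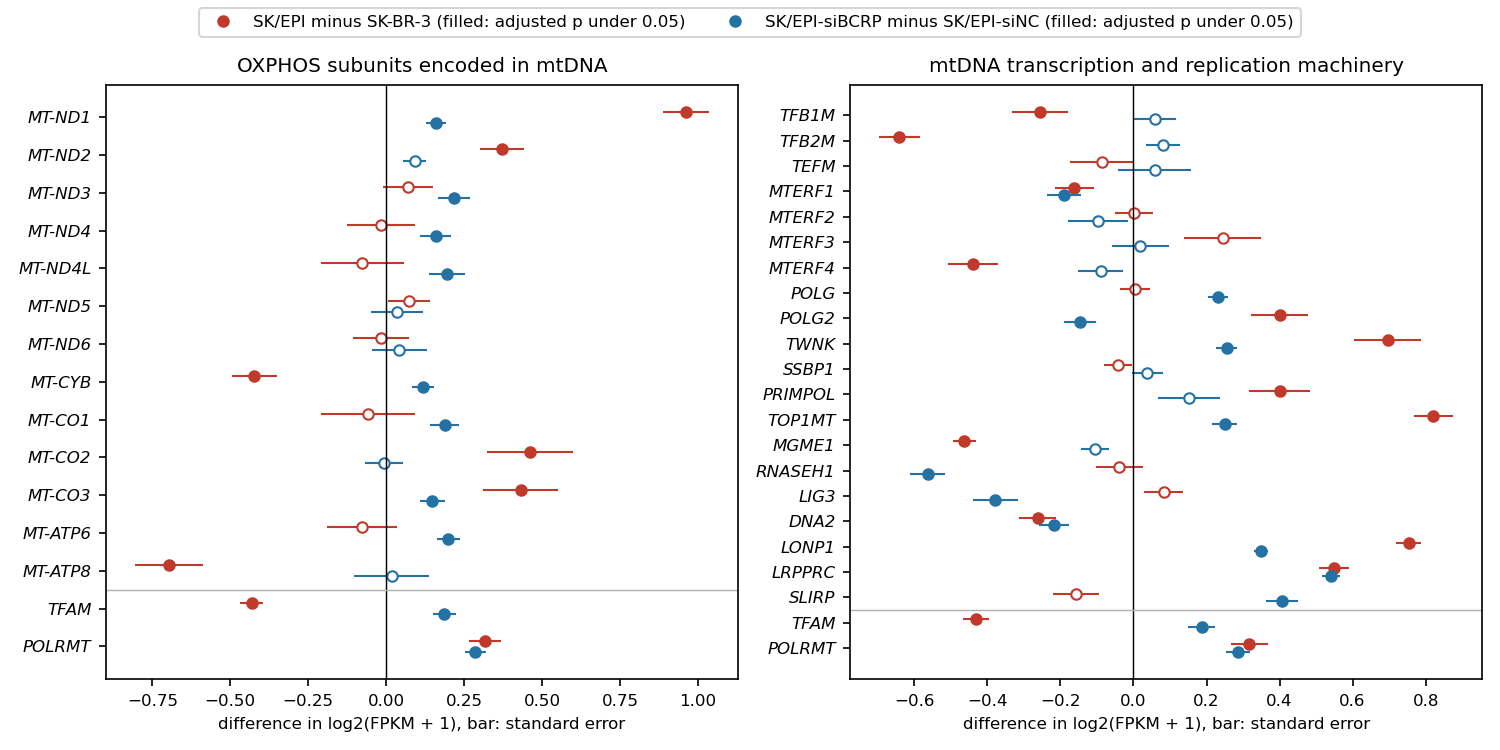
Differences in log2(FPKM + 1) (x axes) of the 13 OXPHOS genes of mtDNA (left) and of 20 genes of the mtDNA machinery (right), with TFAM and POLRMT under the grey line, in SK/EPI against SK-BR-3 cells (red) and after siBCRP against siNC (blue). Bars are standard errors and filled points passed an adjusted p of 0.05. Neither list moves in 1 direction in SK/EPI cells, where TFAM is at -0.43 and POLRMT at 0.32.

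Of 24 tested upstream signals and partners of PGC-1, 12 rose and 8 fell in SK/EPI cells (50% and 33.3%, beside 37.9% and 37% of all tested genes). Of 25 tested after siBCRP, 6 rose and 5 fell (24% and 20%, near the 19.4% and 18.7% of all tested genes). The 5 became 3 without SK/EPI-siNC replicate 2 or 3 or with no filter on low genes, and 10 with voom on the recovered reads. MYC, a growth-promoting factor that also drives mitochondrial genes, rose most in SK/EPI cells (57.1 to 168 FPKM, log2 fold change 1.54 ± 0.03, adjusted p = 5.30e-09), followed by NCOA1 (0.86) and ATF2 (0.70), a factor that can induce PPARGC1A. MED1, a Mediator subunit that binds PGC-1α and is encoded near ERBB2, fell by 1.14, and PPARD and TFEB by 0.78 and 0.77. After siBCRP TFEB rose by 0.30, SIRT1, the deacetylase of PGC-1α, by 0.20 and MYBBP1A by 0.19. PRKAA1, a catalytic subunit of the kinase AMPK that phosphorylates PGC-1α, fell by 0.55, NRIP1, a corepressor of ERRα, by 0.42 and MEF2A by 0.25. The only partners with the pattern of ESRRA and TFAM were TFEB and MEF2D, a fall of 0.77 and 0.55 followed by a rise of 0.30 and 0.17. That is 8.33% of the 24 tested in both, at the level of the 8.51% of all genes. ESRRB and ESRRG, the other receptors of the ERR family, were at or under 0.0216 FPKM in every group mean, so that ESRRA was the only ERR receptor with enough reads to be tested.

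Of 10 genes often used as targets of PGC-1 and ERRα, 6 fell and 2 rose in SK/EPI cells (60% and 20%, beside 37% and 37.9% of all tested genes). After siBCRP 6 rose and 2 fell (60% and 20%, beside 19.4% and 18.7% of all tested genes). The 2 that fell became 1 without replicate 1 or 3 of either group or with no filter on low genes. ACADM, of fatty acid oxidation, fell from 26.6 to 9.20 FPKM in SK/EPI cells (log2 fold change -1.44 ± 0.04, adjusted p = 1.23e-08), and MFN2 fell by 0.90 on the log2 scale. SOD2, the mitochondrial superoxide dismutase, rose by 1.38 and PDK4 by 1.36. After siBCRP IDH3A and ATP5F1B rose by 0.73 and 0.66, and CYCS and PDK4 fell by 0.55 and 0.26. Like ESRRA, 5 of the 10 fell in SK/EPI cells and rose after siBCRP (50%), beside 8.51% of all genes. PDK4 did the opposite in both comparisons, and SOD2 rose in both. The list was chosen with earlier results of these data known, and ATP5F1B is also counted among the OXPHOS genes.

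For the 3 regulators that passed both tests, the genes with the most similar profile over the 12 libraries were looked up among 4011 genes of at least 10 FPKM, by the root mean square difference of log2(FPKM + 1) centred within each table. The nearest to ESRRA were UBL4A (0.0332) and SBF1 (0.0363), the nearest to TFAM were SURF6 and ANKRD10 (0.0402 each), and the nearest to POLRMT were TMEM259 (0.0374) and CTAG2 (0.0404). None of these 6 was a gene of the OXPHOS lists. The share of such genes among the 4011 was not counted, and 6 genes are too few to draw anything from this. SURF6 fell by 0.44 in SK/EPI cells and rose by 0.12 after siBCRP, beside 0.43 and 0.19 for TFAM, and TMEM259 rose by 0.29 and 0.21, beside 0.32 and 0.29 for POLRMT.

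**Figure D5:**
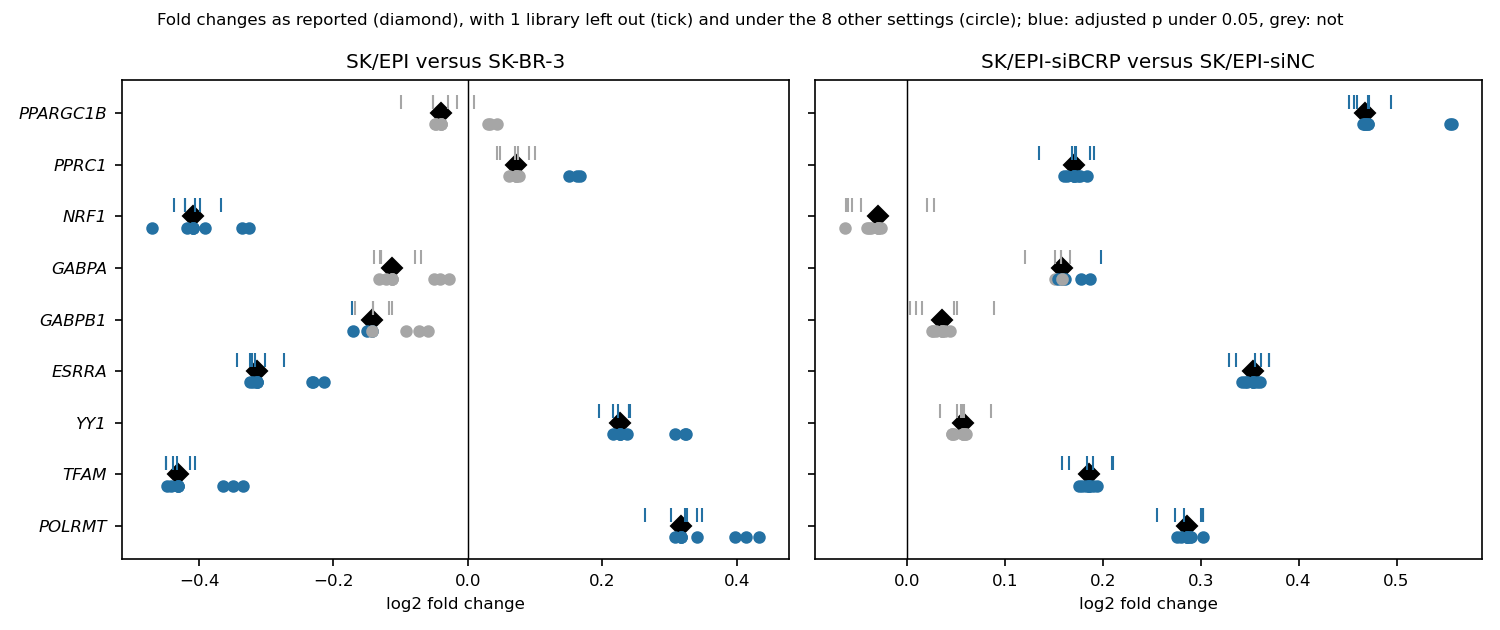
Log2 fold changes (x axes) of the 9 tested regulators (y axis) as reported (diamonds), with 1 library left out (ticks) and under 8 other settings (circles) in SK/EPI against SK-BR-3 cells (left) and after siBCRP against siNC (right). Blue marks an adjusted p under 0.05 and grey one above it. TFAM, ESRRA, NRF1, YY1 and POLRMT stay blue and on 1 side of 0 on the left, as do PPARGC1B, PPRC1, ESRRA, TFAM and POLRMT on the right.

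The calls of TFAM, ESRRA, NRF1, YY1 and POLRMT in SK/EPI cells were kept in all 8 other settings and in all 6 fits with a library left out. In these settings TFAM lay between -0.45 and -0.33, ESRRA between -0.32 and -0.21, NRF1 between -0.47 and -0.33, YY1 between 0.22 and 0.32 and POLRMT between 0.31 and 0.43. After siBCRP the calls of PPARGC1B, PPRC1, ESRRA, TFAM and POLRMT were likewise kept in all of these fits. Over the other settings PPARGC1B lay between 0.47 and 0.56, ESRRA between 0.34 and 0.36, TFAM between 0.18 and 0.19, PPRC1 between 0.16 and 0.18 and POLRMT between 0.28 and 0.30.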

How the data were processed

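RNA-seq of 12 libraries was used. Per the labels, poly-A RNA was prepared with a kit that does not mark strand, and the submitters' processing notes name hg38, HISAT2 2.0.5, featureCounts 1.5.0-p3 and DESeq2 1.16.1 without their roles. FPKM of 58735 genes were deposited by the authors as 2 tables, which may have been scaled separately, so each was fitted alone. The unit is not stated. It was read as FPKM because each value times the merged exon length in GENCODE 29 was a whole multiple of 1 step per library (100% of values, tolerance 0.02) while library sums differed. Reads were computed from these steps.

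A gene was tested if 3 or more libraries held at least 10 reads of it, scaled to the median library. The libraries of the comparison also had to hold at least 15 reads of it in total (15823 and 16298 genes passed). In R 4.3.3, limma 3.58.1 (lmFit, eBayes with a trend) was run on log2(FPKM + 1) with group alone, with Benjamini-Hochberg adjustment over all tested genes and a threshold of 0.05. Fold changes on this scale understate those of low genes. Intervals are 95%. The fits were also run on simulated data, in which far fewer genes changed than were called here. Plots were made with matplotlib 3.10.9, and tables with pandas 2.3.3 and numpy 2.4.6 (Python 3.11.15). A symbol with 2 genes (SOD2) was given the one with more exonic bases.

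The regulators, the other gene lists, the motifs and the tests were chosen with earlier results of these data known. All regulators are named, as are ABCG2, up to 3 largest rises and falls of each other list, partners and mtDNA genes that fell and then rose, and the 2 most alike genes. The values of 1 gene of these lists are not reported here. Genes that overlap a regulator, the 4 that share the pattern of POLRMT, cell markers, and ESRRB and ESRRG were named after their values were seen. Groups come from sample titles. Same-numbered libraries did not deviate together (correlations from -0.0485 to -0.00201 and from 0.00923 to 0.0551), so no pairing was used.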

Additional observations from a re-analysis of the deposited data

How the results depend on the processing

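The calls of TFAM, ESRRA and POLRMT in both comparisons kept their direction and side of the threshold under every setting run, as did those of NRF1 and YY1 in SK/EPI cells and of PPARGC1B and PPRC1 after siBCRP. Of the other scalings, 3 moved SK/EPI against SK-BR-3 upwards (the median of all genes by 0.052 with reads on genes, 0.063 without the mitochondrial chromosome and 0.094 with voom), while median-of-ratios scaling moved it by -0.0063 and changed no call of a regulator. In these 3 settings PPARGC1B turned from -0.0399 to 0.0293, 0.0428 and 0.0323, never passing the test, PPRC1 passed at 0.15, 0.17 and 0.16, and GABPB1 lost its call at -0.0728, -0.0600 and -0.0920. In them 8 nuclear OXPHOS genes rose in place of 5, and 46, 46 and 47 fell in place of 53 (48 fell with no filter). GABPB1 also lost its call with no filter (-0.14, adjusted p = 0.0641). GABPA lost its call after siBCRP with reads on genes (0.15, adjusted p = 0.0522) and with no filter (0.16, adjusted p = 0.0850). With a library left out, GABPB1 lay between -0.17 and -0.11 and PPARGC1B between -0.0994 and 0.00945 in SK/EPI cells, and after siBCRP GABPA lay between 0.12 and 0.20 and NRF1 between -0.0621 and 0.0272. The cause of these changes was not tested.

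With the replicate number as a replicate block, GABPB1 (-0.14, adjusted p = 0.0508) and GABPA after siBCRP (0.16, adjusted p = 0.0759) lost their calls, and 3 mtDNA genes rose after siBCRP in place of 8. Genes called in all went from 11854 to 11656 (11459 shared) and from 6215 to 5640 (5373 shared). The block changed no other call of a regulator. Of the other list counts over all settings, 25 moved by over 1.5 times and 307 did not. PPARGC1A, with at most 3 reads a library, did not pass the filter on low genes, and no fit of it is reported.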

Other observations

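Genes of the mitochondrial ribosome and of mitochondrial mass were also counted. Among all tested genes 37.9% rose and 37% fell in SK/EPI cells, 19.4% rose and 18.7% fell after siBCRP, and 8.51% fell and then rose. Of 78 genes of mitochondrial ribosomal proteins, 49 fell and 14 rose in SK/EPI cells (median log2 fold change -0.26; 9 rose without SK/EPI replicate 3), led by MRPL41, MRPL13 and MRPL24, which fell by 64.3%, 63.2% and 54.8%. After siBCRP 45 rose and 1 fell, led by MRPL34, MRPL41 and MRPS22, which rose by 55.5%, 51.6% and 54.9%. A fall followed by a rise was met by 29 of the 78 (37.2%). Of 9 genes often used as a measure of mitochondrial mass, 8 fell and 1 (HSPD1, a matrix chaperone) rose in SK/EPI cells, and 8 rose and 1 (CYCS) fell after siBCRP. The channel VDAC1 fell by 0.83 and the import receptor TOMM40 by 0.69 on the log2 scale in SK/EPI cells, and after siBCRP they rose by 0.37 and 0.58. A fall followed by a rise was met by 7 of the 9 (77.8%).

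Among 62 nuclear OXPHOS genes with a promoter in the RefSeq table, 35.5% held the YY1 core, 33.9% the NRF1 core, 30.6% the GABP/ETS core and 3.23% the ERR core. Of the tested ones with the YY1 core, 20 of 21 fell in SK/EPI cells, beside 20 of 40 without it. After siBCRP 18 of 22 with it rose, beside 31 of 40 without it. With the NRF1 core, 16 of 21 fell and 18 of 21 rose, and without it 24 of 40 fell and 31 of 41 rose. With the GABP/ETS core, 11 of 19 fell and 18 of 19 rose, and without it 29 of 42 fell and 31 of 43 rose, so that in SK/EPI cells the share that fell was lower with this core (57.9%) than without it (69%). Over all tested genes with a promoter, 45.7% with the YY1 core and 39.4% without it fell in SK/EPI cells, 42% and 39.7% for the NRF1 core, and 42.6% and 39.4% for the GABP/ETS core. Of all such genes, 26.5% with the YY1 core and 21.1% without it rose after siBCRP. These shares were 21.4% and 21.6% for the NRF1 core and 23.6% and 21.2% for the GABP/ETS core. The promoters share cores and base composition, and these counts are descriptions with no test.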
